A study of Mus musculus with 9 samples.

Results

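Crypt-bottom goblet cells were compared with surface enterocytes in 6 sorted libraries of the mouse colon epithelium, of 9 libraries in the series. The goblet-enriched libraries (3) held Epcam+ Cd44+ Kit+ cells of the crypt bottom, and the enterocyte-enriched libraries (3) held Epcam+ Cd44-neg Cd66a-high cells of the crypt top, where Cd66a is the product of Ceacam1. The last 3 libraries, Lgr5-enriched Epcam+ Cd44+ Kit-neg cells of the crypt bottom, entered the fit and are given only for reference. All 9 libraries carried the same labels for strain and sex, adult female C57BL/6J mice; the labels name no engineered allele and no treatment of the animals. EDTA was used to detach the crypts, and DNase-I and Collagenase-III to dissociate them. Dead (DAPI+) cells, doublets and cells with Cd3, Cd16/Cd32, Cd31 or Cd45 were gated out before the sort. Each replicate came from an independent mouse, per the series text. The enterocyte gate used no antigen that removes a goblet cell without Cd44.

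Goblet cells make the gel that covers the colon. Their main product is the mucin Muc2, a very large protein that is folded and disulphide-bonded in the endoplasmic reticulum (ER), O-glycosylated in the Golgi, packed in granules and released. Goblet cells arise in the crypt from progenitors with low Notch signalling, under Atoh1 and then Spdef, and in the mouse colon Kit marks those at the crypt bottom that lie beside the stem cells and present Notch ligands. Surface enterocytes (colonocytes) are the end of the absorptive lineage: they carry a brush border, take up salt, water and butyrate, and face the microbes of the lumen.

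Levels are in TPM (transcripts per 1000000), which compares genes per length. Sets of 3 values follow the order of replicates 1 to 3. Differences are on the log2(TPM + 1) scale, goblet minus enterocyte. A gene was called at an adjusted p below 0.05 (limma, Benjamini-Hochberg over all genes tested, two-sided). Depth, as a lower bound, was 12.1 to 14.0 M reads (M, times 1000000) in the goblet, 11.2 to 16.0 M in the enterocyte and 12 to 26.8 M in the Lgr5-enriched libraries. One library went against its label: enterocyte replicate 1, labelled female, held Xist at 0.128 TPM, against 110 to 204 TPM elsewhere, and Y-linked transcripts summing to 139 TPM, against at most 0.325 TPM. In bulk libraries, fewer cells of a type and less RNA per cell cannot be told apart, and TPM fixes each library's total, so all levels are relative.

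The markers followed the labels. Muc2 stood at 9639, 11551 and 13123 TPM in goblet and at 1321, 975 and 1326 TPM in enterocyte libraries (log2 difference 3.25, SE 0.23, adjusted p = 3.53e-05). Spdef, a transcription factor of goblet maturation, stood at 763, 641 and 666 TPM in goblet and at 55.3, 49.6 and 70.2 TPM in enterocyte libraries (log2 difference 3.55, SE 0.19, adjusted p = 2.37e-05). Car1, a carbonic anhydrase of colonocytes, stood at 6.46, 4.55 and 49.6 TPM in goblet and at 1451, 1558 and 948 TPM in enterocyte libraries (log2 difference -6.66, SE 0.87, adjusted p = 0.000414). The ranges of the goblet and enterocyte libraries did not overlap for any of these, but Car1 in goblet replicate 3 was several times that of goblet replicates 1 and 2, and without that library the difference was -7.65 (-6.05 without goblet replicate 2). Krt20, a keratin of the differentiated surface, stood at 1.91, 5.01 and 35.6 TPM in goblet and at 1594, 421 and 623 TPM in enterocyte libraries (log2 difference -6.44, SE 0.84, adjusted p = 0.000409; -7.48 without goblet replicate 3 and -5.66 without goblet replicate 1), and goblet replicate 3 was again the highest goblet library. In mm10, Muc2 lies on chr7:141690340-141754693 (+), Spdef on chr17:27714352-27728955 (-), Car1 on chr3:14766216-14808368 (-) and Krt20 on chr11:99428403-99438150 (-). The RNAs of the sorting antigens, which the gates used, gave 3.10 for Cd44, 3.07 for Kit and -0.64 for Ceacam1, as log2 differences. Epcam was at 1526 to 1945 TPM in goblet and 1922 to 2064 TPM in enterocyte libraries and was not called. The call of Ceacam1 (adjusted p = 0.0364) was lost without enterocyte replicate 1 or 2 or goblet replicate 2 or 3, with adjusted p up to 0.128.

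Of 12888 genes tested, 5687 were called (44.1%): 3633 were higher in goblet (28.2%) and 2054 higher in enterocyte libraries (15.9%). At 4-fold or more, the order turned: 315 were higher in goblet and 450 in enterocyte libraries. The median difference of all genes tested was 0.20. With libraries scaled by the median of ratios that median fell by 0.17, and 2553 genes were called higher in goblet and 2751 in enterocyte libraries, so goblet took 48.1% of the calls rather than 63.9%. None of the named genes refitted under that scaling reversed its direction. Without goblet replicate 3 and enterocyte replicate 1 together, a setting added after the data were seen, the calls were 2266 and 1420.

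**Figure D1:**
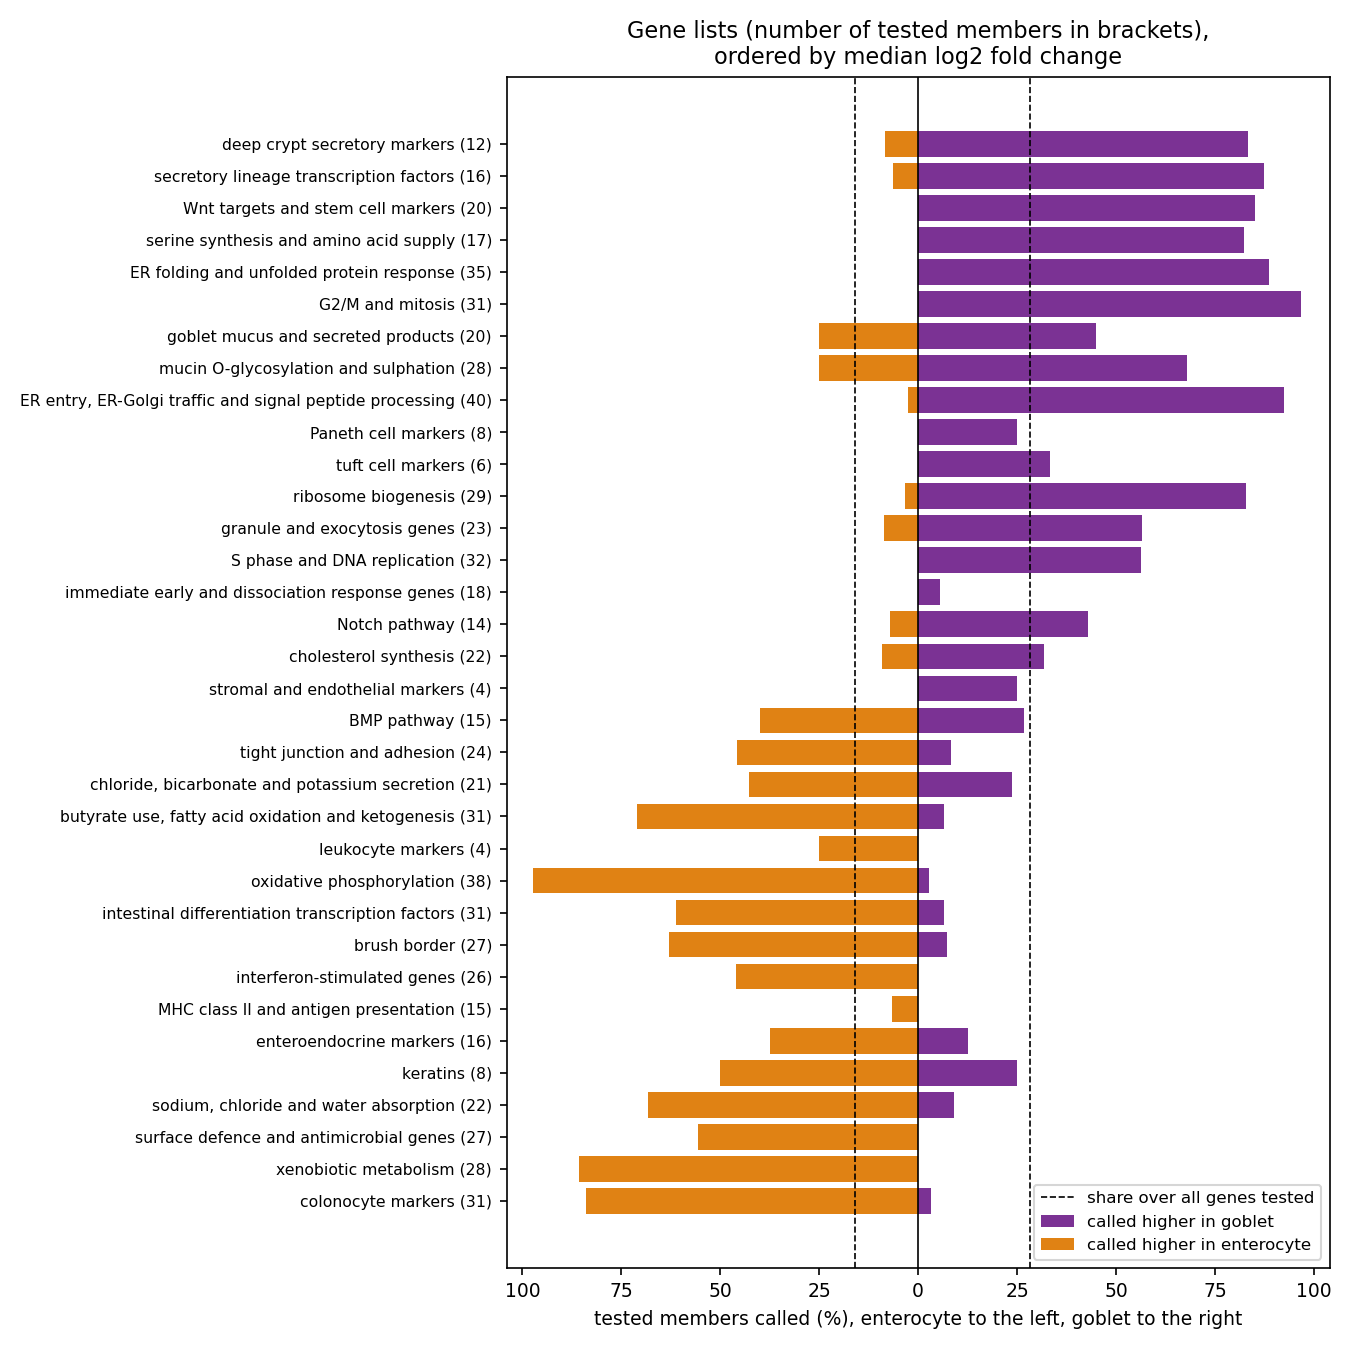
Share of the tested members of each gene list (number in brackets) called higher in goblet (bars to the right) or higher in enterocyte libraries (bars to the left), in percent; dashed lines mark the shares over all genes tested, 28.2% and 15.9%. The lists of ER folding, ER-Golgi traffic and mitosis lie almost wholly to the right and oxidative phosphorylation and xenobiotic metabolism almost wholly to the left, while the goblet products have bars on both sides.

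The mucus and secreted products of goblet cells divided between the gates. Of 20 tested members, 9 were called higher in goblet libraries and 5 higher in enterocyte libraries (3 without goblet replicate 1 or 3), with a median difference of 1.27. Spink4 stood at 19067, 12134 and 18785 TPM in goblet and at 2537, 1575 and 3324 TPM in enterocyte libraries (log2 difference 2.78, SE 0.28, adjusted p = 0.000121); Spink4 encodes a small secreted protease inhibitor. Agr2 stood at 29642, 16332 and 18679 TPM in goblet and at 2545, 2467 and 3298 TPM in enterocyte libraries (log2 difference 2.92, SE 0.25, adjusted p = 5.83e-05); Agr2 is the ER disulphide isomerase that goblet cells need for Muc2. Every goblet library lay above every enterocyte library for both, and with Muc2 they were among the most abundant transcripts of the goblet gate. The chemokines Ccl9 (136, 53 and 59.7 against 2.14, 1.3 and 2.2 TPM; 4.75) and Ccl6 (1889, 2479 and 1687 against 375, 508 and 654 TPM; 1.99) were also called higher in goblet libraries. So was the lectin Reg4 (2641, 3441 and 3808 against 394, 1019 and 1427 TPM; 1.97), and the groups did not overlap for any of these. Itln1 (1.35, adjusted p = 0.0287) and Cd177 (3.03, adjusted p = 0.0379) moved with single libraries: Itln1 lost its call without enterocyte replicate 1 or 2 or goblet replicate 3 (adjusted p 0.0519 to 0.0951). Cd177 lost its call when any of the 6 libraries but enterocyte replicate 1 was left out (adjusted p 0.0538 to 0.108), and stood at 1.87 without enterocyte replicate 2 and 3.88 without enterocyte replicate 1.

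The products that went the other way belong to the same textbook set. Zg16, a lectin that binds Gram-positive bacteria in mucus, stood at 120, 565 and 351 TPM in goblet and at 7864, 4900 and 3679 TPM in enterocyte libraries (log2 difference -4.17, SE 0.53, adjusted p = 0.000331). Zg16 was thus lower in each goblet library than in any enterocyte library, and goblet replicate 1 was the lowest of the 6; without it the difference was -3.55. Tff3, the trefoil peptide co-secreted with Muc2, stood at 1172, 1171 and 1018 TPM in goblet and at 2688, 1651 and 1414 TPM in enterocyte libraries (log2 difference -0.72, SE 0.23, adjusted p = 0.0315). The goblet libraries were close to each other and all lay below the enterocyte libraries. The call of Tff3 was lost when enterocyte replicate 1 or any goblet library was left out (adjusted p 0.056 to 0.0921), so it is less firm than that of Zg16. Lgr5-enriched libraries held 73.9 to 135 TPM of Zg16, a range that includes goblet replicate 1, and 42.9 to 58.1 TPM of Tff3, below every goblet library. The membrane mucin Muc13 (1832, 1440 and 1235 against 5136, 2559 and 2593 TPM; -1.13), which Lgr5-enriched libraries held at 1514 to 1661 TPM, and the secreted Wfdc2 (84.7, 315 and 254 against 876, 1440 and 1146 TPM; -2.57) were called higher in enterocyte libraries as well. Guanylin (Guca2a, 541, 995 and 876 against 2044, 4302 and 2418 TPM) fell on the same side at -1.83 (adjusted p = 0.0295), but without goblet replicate 1 or 3 or enterocyte replicate 2 or 3 the call was lost, with adjusted p up to 0.0939. Its neighbour on chromosome 4, uroguanylin (Guca2b), which was listed with the colonocyte markers, went the opposite way: 133, 202 and 147 against 24.6, 36.5 and 41.8 TPM (log2 difference 2.20, SE 0.23, adjusted p = 0.000143).

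Other goblet products did not pass the test. Fcgbp, the mucus protein bound to Muc2, stood at 435, 1245 and 2061 TPM in goblet and at 2170, 1019 and 1172 TPM in enterocyte libraries (log2 difference -0.40, SE 0.56, adjusted p = 0.582). Goblet replicate 1 lay below all enterocyte libraries while goblet replicate 3 was near the top of them. Clca1, a mucus metalloprotease, stood at 1184, 1668 and 5459 TPM in goblet and at 3547, 1832 and 2890 TPM in enterocyte libraries (log2 difference -0.27, SE 0.65, adjusted p = 0.762), with overlapping groups. Retnlb, an antibacterial resistin-like protein, stood at 3703, 255 and 3982 TPM in goblet and at 424, 47.1 and 557 TPM in enterocyte libraries (log2 difference 2.79, SE 1.23, adjusted p = 0.0942), and replicate 2 was the lowest in both populations. With the replicate number as a block the same difference was called (adjusted p = 0.000377), and without goblet replicate 2 it was 4.09 (adjusted p = 0.0176). Summed over the list, goblet libraries held 63787 to 81838 TPM, enterocyte libraries 28847 to 34742 TPM and Lgr5-enriched libraries 5478 to 6234 TPM.

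**Figure D2:**
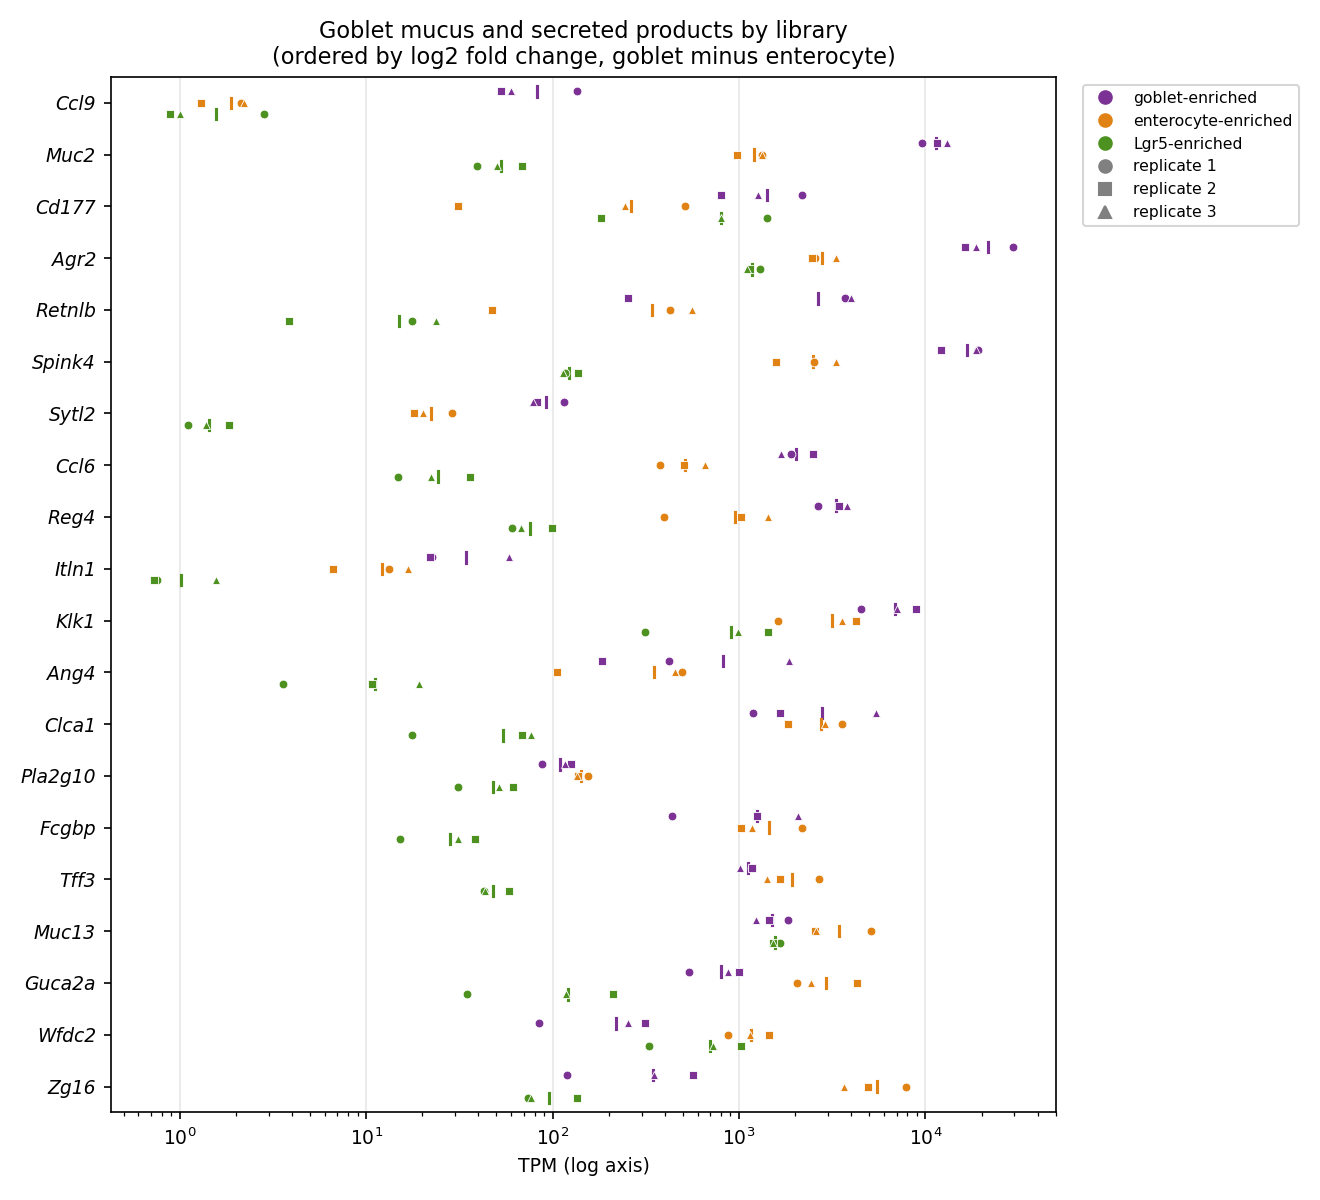
TPM (log axis) of the 20 tested goblet products in each library; colours mark the population, symbols the replicate and short bars the mean of 3 libraries, with genes ordered by the log2 difference, goblet minus enterocyte. Ccl9, Muc2, Agr2 and Spink4 at the top are highest in goblet libraries, and Zg16 and Wfdc2 at the bottom are highest in enterocyte libraries.

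Goblet products were plentiful inside the enterocyte gate. The 9 products called higher in goblet stood in the enterocyte libraries at a median of 15.2%, 11.4% and 20.0% of their goblet mean (replicates 1 to 3), but at 1.84%, 1.98% and 1.49% in the Lgr5-enriched libraries. Cd177 stood apart there, at 99.6%, 12.9% and 56.6% in Lgr5-enriched replicates 1 to 3. Gene by gene the enterocyte mean ran from 2.27% for Ccl9 to 35.6% for Itln1, with Muc2 at 10.6%, Agr2 at 12.9%, Spink4 at 14.9%, Ccl6 at 25.4% and Reg4 at 28.7%. The transcription factors of the lineage had these shares: Spdef 8.46%, Cbfa2t3 9.69%, Gfi1 12.2% and Atoh1 19.2%. Over their list the enterocyte medians were 17.3%, 19.5% and 25.6%. The share thus differed between goblet genes. Whether these transcripts come from goblet cells sorted in the enterocyte gate or from the enterocytes was not tested.

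Colonocyte transcripts were least in goblet replicates 1 and 2 and higher in goblet replicate 3. The 25 colonocyte markers called higher in enterocyte libraries, with the sorting antigen Ceacam1 left out, stood at a median of 0.742%, 2.04% and 4.79% of their enterocyte mean in goblet replicates 1 to 3, and at 8.85%, 10.1% and 10.1% in the Lgr5-enriched libraries. Goblet replicate 3 was the highest of the goblet libraries for 21 of the 25, at a median of 3.13 times the mean of the other two. The excess was uneven: 75.4 times for Car4, 18 times for Slc26a3 and 9.01 times for Car1, but 1.14 times for Guca2a, 1.06 times for Krt8 and 1.06 times for Hpgd. For the last 3 genes, of which Guca2a is also on the list of goblet products, goblet replicate 3 was close to the other goblet libraries or between them. The absorption genes showed the same order, at 2.49%, 4.45% and 7.42%, and the brush border genes little of it, at 32.8%, 36.6% and 38.7%. Among surface defence genes the shares were 2.92%, 2.69% and 7.68%, and the transglutaminase Tgm3 in goblet replicate 3 stood at 32.6 times the mean of the other goblet libraries. Of the 2054 genes called higher in enterocyte, goblet replicate 3 was the highest goblet library for 865 (42.1%), against 521 and 668 for goblet replicates 1 and 2. Of the 3633 genes called higher in goblet, enterocyte replicate 3 was the highest enterocyte library for 2182 (60.1%).

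**Figure D3:**
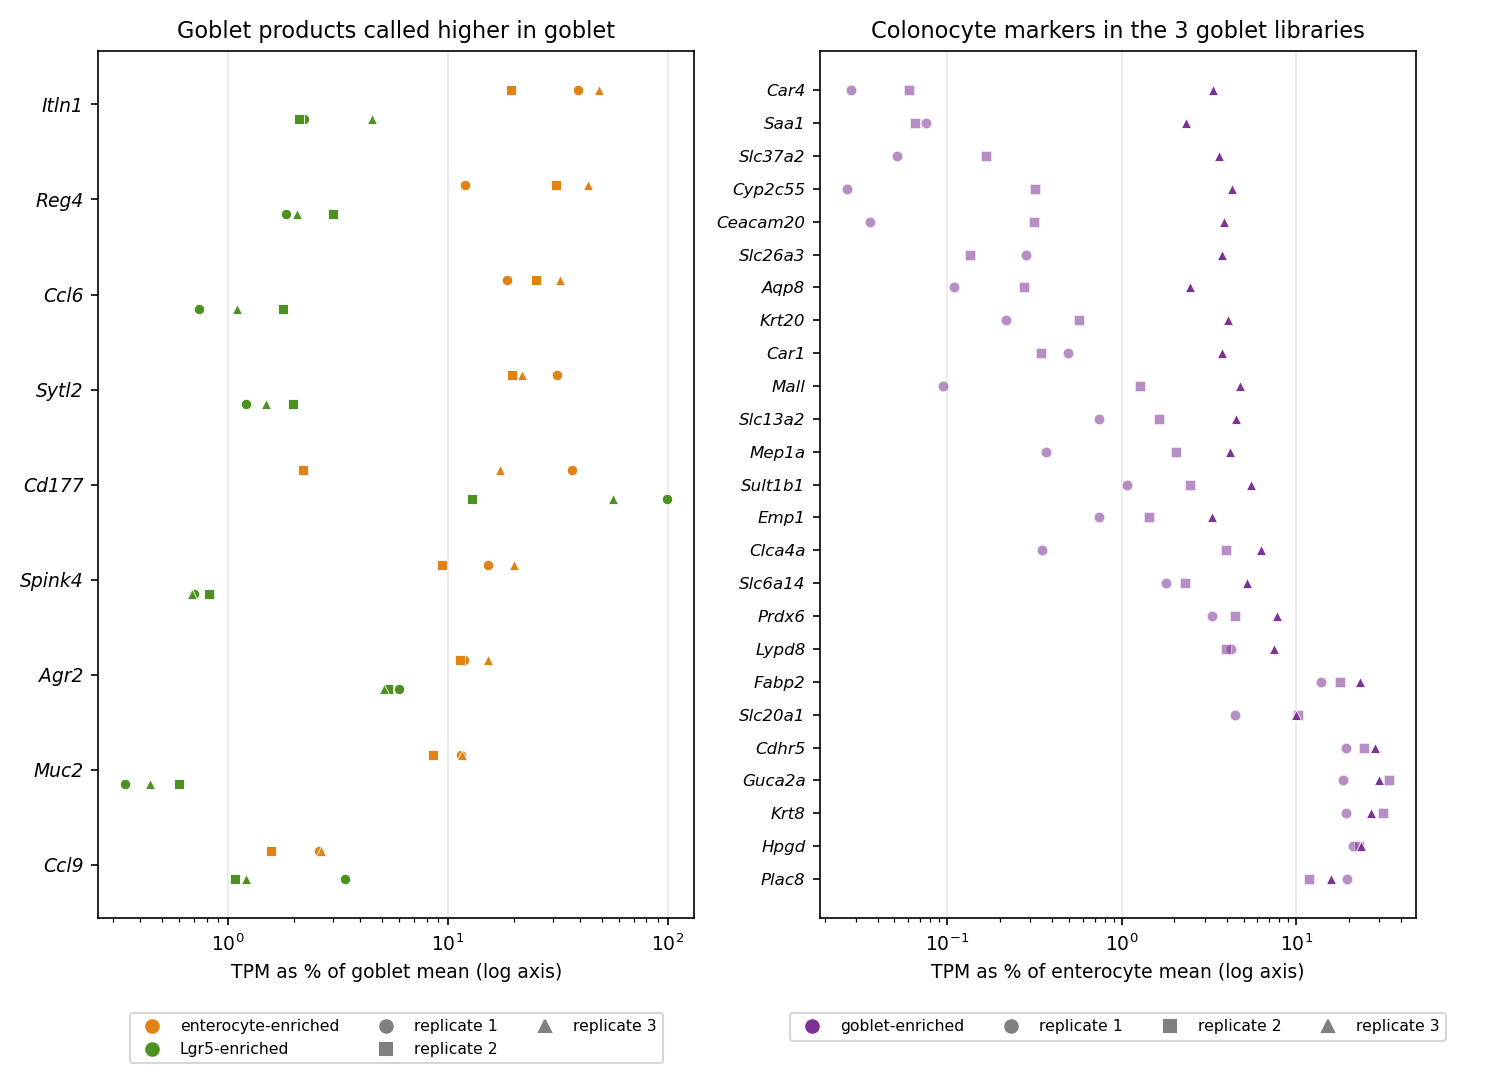
Left, goblet products in each enterocyte-enriched and Lgr5-enriched library as percent of the goblet mean; right, colonocyte markers in each goblet library as percent of the enterocyte mean (log axes, symbols mark the replicate). Muc2 in enterocyte libraries averages 10.6% of its goblet level, and Car4 and Slc26a3 in goblet replicate 3 stand at 75.4 and 18 times the mean of the other goblet libraries.

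The transcription factors of the secretory lineage were higher in goblet libraries for 14 of 16 tested, with a median difference of 1.88. Atoh1, the factor that commits cells to the lineage, stood at 367, 326 and 322 TPM in goblet and at 55.5, 58.4 and 80.9 TPM in enterocyte libraries (log2 difference 2.38, SE 0.22, adjusted p = 7.44e-05). Cbfa2t3, a corepressor of the Eto family, stood at 89, 91.9 and 65.6 TPM in goblet and at 6.37, 7.95 and 9.56 TPM in enterocyte libraries (log2 difference 3.21, SE 0.2, adjusted p = 2.37e-05). Creb3l4, a membrane-bound factor of the Creb3 family, stood at 338, 334 and 308 TPM in goblet and at 27.5, 40.7 and 59.1 TPM in enterocyte libraries (log2 difference 2.98, SE 0.24, adjusted p = 5.23e-05). In all of these every goblet library lay above every enterocyte library. Gfi1, which represses enteroendocrine genes, differed by 2.78, Bhlha15, a factor of secretory cell architecture, by 2.95, Creb3l1 by 2.21, Foxa3 by 2.35, and Xbp1 by 1.54. The others were Sox9 with 1.36, Foxa1 with 1.26 and Foxa2 with 1.17. Not all of the 14 were particular to the goblet gate. The Lgr5-enriched mean was 108% of the goblet mean for Sox9, 109% for Cbfa2t2, 79.1% for Foxa2 and 55.9% for Foxa1. It was 1.53% for Atoh1 and 0.865% for Spdef, and the medians over the 14 were 14.7%, 19.7% and 17.5% in Lgr5-enriched replicates 1 to 3. Neurog3 (1.09) and Cbfa2t2 (0.50) moved with single libraries: without goblet replicate 2 or 3 or enterocyte replicate 1 or 3 both calls were lost, and that of Cbfa2t2 also without enterocyte replicate 2 (adjusted p 0.0613 to 0.122). Klf4 stood at 524, 576 and 546 TPM in goblet and at 1089, 916 and 875 TPM in enterocyte libraries (log2 difference -0.80, SE 0.13, adjusted p = 0.00107). Klf4, needed for goblet maturation and also expressed in surface cells, was the only member called higher in enterocyte libraries. Sox4 was not called, but with the replicate number as a block it was (adjusted p = 0.0254).

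The markers of deep crypt secretory cells were called higher in goblet libraries for 10 of 12, with a median of 2.26. One of the 10 is Kit, which defined the gate; without it the count was 9 of 11 and the median 2.14. The Notch ligands were among them. Dll4 stood at 65.2, 79.9 and 54.7 TPM in goblet and at 10.8, 15 and 17.4 TPM in enterocyte libraries (log2 difference 2.14, SE 0.25, adjusted p = 0.000215). Dll1 was at 71, 85.4 and 38.4 against 13.7, 20.9 and 20.3 TPM (1.72). In the Notch list, 6 of 14 tested members were higher in goblet and 1 in enterocyte libraries, with a median of 0.25, near that of all genes. Without goblet replicate 2 the first count was 3. Besides both ligands, Lfng, a glycosyltransferase that modifies Notch, stood at 37, 47.2 and 38.7 against 8.56, 7.74 and 10.9 TPM (2.06), Dll3 differed by 1.65 and Mfng by 0.91, and the call of Mfng was lost when any enterocyte library was left out (adjusted p 0.0741 to 0.088). Dll3 (2.03, 2.89 and 3.4 TPM in goblet, at most 0.289 TPM elsewhere) passed the filter on low values only through the goblet libraries. It therefore had to differ in that direction, and it is among the 6. Mfng, also among them, would have failed the filter without the goblet libraries. Jag1, the member higher in enterocyte libraries (-0.49), lost its call without enterocyte replicate 1 or 2 or goblet replicate 2 or 3 (adjusted p 0.0629 to 0.117). With the replicate number as a block, 2 members were higher in enterocyte. Tph1, which makes serotonin, was the deep crypt marker that ran against the rest, at 0.258, 0.837 and 1.34 against 4.9, 3.78 and 2.78 TPM (-1.43).

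The enzymes that build mucin O-glycans followed the goblet gate for 19 of 28 tested, with 7 called higher in enterocyte and a median of 1.26. B3gnt6, the core 3 synthase of colonic mucin, stood at 33.3, 123 and 68 TPM in goblet and at 0.703, 1.78 and 1.99 TPM in enterocyte libraries (log2 difference 4.78, SE 0.43, adjusted p = 7.01e-05). It passed the filter only through the goblet libraries, so it had to differ in that direction, and it is among the 19. A4gnt, which caps glycans with alpha-linked N-acetylglucosamine, stood at 180, 69.5 and 79.2 TPM in goblet and at 5.06, 3.57 and 9.79 TPM in enterocyte libraries (log2 difference 3.91, SE 0.4, adjusted p = 0.000123). Neither passed 9.79 TPM in any enterocyte library. The initiating transferases Galnt5 (173, 105 and 103 against 17.1, 15.4 and 19.3 TPM; 2.77), Galnt3 (2.44) and Galnt12 (2.04) and the sulphotransferase Chst4 (2.44) were also called higher. The 7 others, a count of 3 without enterocyte replicate 1 and of 4 without goblet replicate 2 or 3, were not of 1 kind. They included the sulphate carrier Slc26a2 (103, 71.4 and 67.8 against 351, 287 and 230 TPM; -1.83), the sulphate donor synthase Papss2 (-0.86) and, with them, the terminal transferases B4galnt3 (-2.22, and -1.54 without goblet replicate 1) and St3gal4 (-1.44). The call of St3gal4 was lost without enterocyte replicate 1 or goblet replicate 2 (adjusted p 0.0753 and 0.0717). Thus the sulphotransferase Chst4 and the sulphate supply genes Slc26a2 and Papss2 stood on opposite sides.

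The ER folding genes were called in 1 direction. Of 35 tested members, 31 were called higher in goblet and 0 in enterocyte libraries, with a median of 1.35 and a range of 28 to 34 calls over 22 other settings. Pdia5, a protein disulphide isomerase, stood at 598, 549 and 510 TPM in goblet and at 55.8, 71.9 and 102 TPM in enterocyte libraries (log2 difference 2.88, SE 0.19, adjusted p = 3.31e-05). Txndc5, another of that family, stood at 1597, 1265 and 1164 TPM in goblet and at 191, 230 and 269 TPM in enterocyte libraries (log2 difference 2.54, SE 0.16, adjusted p = 2.55e-05). Hspa5, the main ER chaperone BiP, stood at 2882, 1772 and 1864 TPM in goblet and at 932, 784 and 836 TPM in enterocyte libraries (log2 difference 1.32, SE 0.26, adjusted p = 0.0038). For each, every goblet library lay above every enterocyte library. The difference was smaller for Hspa5 than for the isomerases. Lgr5-enriched replicate 1 held Hspa5 at 1430 TPM, above the enterocyte libraries, but replicates 2 and 3 held 793 and 816 TPM, within the enterocyte range. Dnajc10, the reductase partner of BiP, differed by 2.73, and Derl3, of ER-associated degradation, by 1.96. Derl3, among the 31, passed the filter on low values only through the goblet libraries, so it had to differ in that direction. Of the pair of Ire1 sensors, the epithelial Ern2 differed by 2.15 (377, 537 and 429 against 80.3, 106 and 114 TPM) and the general Ern1 by 0.77 (55.7, 48.9 and 36.7 against 29.2, 26.3 and 25.2 TPM). Goblet replicate 1 held the most of the list, 23335 TPM in sum against 16876 and 16938 TPM in goblet replicates 2 and 3, with 6510 to 7560 TPM in enterocyte libraries and 6909 to 10025 TPM in Lgr5-enriched libraries.

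A sequence that the sort did not use was present in part of the promoters of this list. The ER stress response element, CCAAT and CCACG with any 9 bases between them, is bound by NF-Y with Atf6 or Xbp1 in textbook accounts. It was searched on both strands in the window from 250 bases before to 50 after each start (RefSeq, GRCm38.p6, the mm10 assembly). It was present for 9 of the 30 list members with a promoter in the table (30.0%), for 18 of 9643 tested genes with a promoter (0.187%) and for 37 of 27025 genes in all (0.137%). All 9 carriers were called higher in goblet libraries: Hspa5, Calr, Hsp90b1, Pdia6, Canx, Creld2, Dnajc3, Syvn1 and Derl3. With or without the element, 31 of the 35 tested list members were called so, and 28.2% of all genes tested. The calls of tested carriers outside the list were not examined, so no link of the element with the call is drawn. The call of Canx was lost without goblet replicate 1 or enterocyte replicate 2 or 3 (adjusted p 0.0701 to 0.0896). Derl3 passed the filter only through the goblet libraries, so its direction was set by the filter. None of 14 goblet products and none of 27 colonocyte markers with a promoter held the element. CCACG alone, which is contained in the element, was present for 83.3% of the ER list, 51.7% of tested genes, 21.4% of goblet products and 37.0% of colonocyte markers. The E-box CAGCTG, a form that Atoh1 and related factors can bind, was present for 28.6% of goblet products, 33.3% of colonocyte markers, 13.3% of the ER list and 17.8% of tested genes. Every share of a list rests on 30 genes or fewer, and a match in letters does not show binding.

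The 4 most abundant carriers in goblet libraries are printed to show how alike the element is among them, with 20 bases on each side, in the direction of the gene and with the element in capitals. They are Hspa5 at chr2:34772005-34772063 (+), Calr at chr8:84847055-84847113 (-), Hsp90b1 at chr10:86705618-86705676 (-) and again at chr10:86705513-86705571 (-), and Pdia6 at chr12:17266471-17266529 (+), all upstream of the start.
Hspa5: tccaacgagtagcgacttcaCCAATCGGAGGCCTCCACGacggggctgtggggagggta
Calr: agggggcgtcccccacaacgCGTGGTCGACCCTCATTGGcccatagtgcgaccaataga
Hsp90b1, far copy: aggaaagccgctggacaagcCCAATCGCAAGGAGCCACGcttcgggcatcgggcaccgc
Hsp90b1, near copy: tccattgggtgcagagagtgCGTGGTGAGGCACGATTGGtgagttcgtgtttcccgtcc
Pdia6: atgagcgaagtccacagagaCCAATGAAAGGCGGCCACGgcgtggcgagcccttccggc
The element runs forward in Hspa5, Pdia6 and the far copy of Hsp90b1, and reversed, from CGTGG to ATTGG, in Calr and the near copy of Hsp90b1. It begins 65 bases before the start in Hspa5, 98 in Pdia6, 162 in Calr and 212 and 107 in Hsp90b1. The 4 genes differed between the gates by 1.32 for Hspa5, 1.01 for Calr (adjusted p = 0.0118), 1.35 for Hsp90b1 (adjusted p = 0.0078) and 1.78 for Pdia6 (adjusted p = 0.000215). Calr stood at 2358, 1497 and 1686 TPM in goblet and at 1198, 732 and 830 TPM in enterocyte libraries, and the lowest goblet library was above the highest enterocyte library.

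The path from the ER to the granule moved with folding. Of 40 genes of ER entry, ER-Golgi traffic and signal peptide processing, 37 were higher in goblet and 1 in enterocyte libraries, with a median of 1.19. Kdelr3, a receptor that returns ER residents from the Golgi, stood at 245, 169 and 196 TPM in goblet and at 15.7, 19.2 and 30.2 TPM in enterocyte libraries (log2 difference 3.20, SE 0.28, adjusted p = 6.27e-05). Its relative Kdelr2, more abundant in every library, differed by 1.81 (812, 616 and 647 against 206, 168 and 213 TPM). The cargo receptor Lman1 differed by 2.40, the COPII coat subunit Sec24d by 2.18 and the translocon-associated Ssr3 by 1.76. Sec23a, also of the COPII coat, was the member on the enterocyte side (47.3, 33.6 and 29.2 against 70.1, 55.5 and 55.6 TPM; -0.73). For granules and exocytosis, 13 of 23 were higher in goblet and 2 in enterocyte libraries, with a median of 0.83. Rap1gap (414, 530 and 495 against 59.8, 67.8 and 77.1 TPM; 2.80), a GTPase activator for Rap1, the calcium sensor Syt7 (2.39), the calcium-activated potassium channel Kcnma1 (2.32), and the Rab27 effector Sytl2 (2.00) led the list. Vamp8, a granule SNARE, was lower in goblet libraries (168, 176 and 178 against 377, 321 and 287 TPM; -0.90), as was Unc13d, a priming factor (2.39, 2.29 and 2.49 against 19.9, 20.8 and 17.7 TPM; -2.59).

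Genes of amino acid supply were mostly on the goblet side. Of 17 genes of serine synthesis and amino acid uptake, 14 were higher in goblet and 0 in enterocyte libraries, with a median of 1.57. Slc1a4, a carrier of neutral amino acids, stood at 88.1, 63.1 and 84.6 TPM in goblet and at 7.26, 6.9 and 9.45 TPM in enterocyte libraries (log2 difference 3.16, SE 0.2, adjusted p = 2.37e-05), with groups far apart. Chac1, a glutathione-degrading target of the Atf4 pathway, differed by 3.52, Phgdh, the first enzyme of serine synthesis, by 2.42, Slc7a5 by 2.29, the folate enzyme Mthfd2 by 2.25 and asparagine synthetase Asns by 2.03. In sum the list held 1322 to 1439 TPM in goblet, 482 to 794 TPM in enterocyte and 1215 to 1251 TPM in Lgr5-enriched libraries. Lgr5-enriched libraries thus came close to goblet ones. For Phgdh they were higher, at 81.1, 26.5 and 59.6 TPM against 16.2, 9.72 and 22.5 TPM in goblet libraries. For Chac1, Asns and Mthfd2 they were lower.

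The colonocyte markers had the widest median difference of the lists. Of 31 tested, 26 were higher in enterocyte and 1, Guca2b, in goblet libraries (2 with the replicate block or without enterocyte replicate 1), with a median of -4.25. Without Ceacam1, whose product the enterocyte gate used, 25 of 30 were higher in enterocyte libraries and the median was -4.62. Saa1, an acute phase protein of the epithelium, stood at 1.44, 1.25 and 44.3 TPM in goblet and at 4378, 518 and 789 TPM in enterocyte libraries (log2 difference -7.59, SE 1.18, adjusted p = 0.00105). Car4, a membrane carbonic anhydrase, stood at 0.27, 0.583 and 32.2 TPM in goblet and at 1992, 330 and 562 TPM in enterocyte libraries (log2 difference -7.47, SE 1.14, adjusted p = 0.000957). Slc26a3, the chloride-bicarbonate exchanger of the apical membrane, stood at 1.51, 0.716 and 20 TPM in goblet and at 867, 366 and 364 TPM in enterocyte libraries (log2 difference -6.76, SE 0.8, adjusted p = 0.000247). Goblet replicates 1 and 2 were at most at 1.51 TPM in all of these and goblet replicate 3 was at 20 TPM or more, yet still far below the enterocyte libraries. Without goblet replicate 3 the differences were -9.02 for Saa1, -8.99 for Car4 and -7.88 for Slc26a3; without enterocyte replicate 1 they were -6.67 for Saa1 and -6.74 for Car4. Leaving out goblet replicate 1 gave -6.91 for Saa1 and -6.63 for Car4, and leaving out goblet replicate 2 gave -6.85, -6.79 and, for Slc26a3, -6.07. Saa1 was -8.21 without enterocyte replicate 2. Cyp2c55, a cytochrome, differed by -6.61 (-7.72 without goblet replicate 3, -5.83 without goblet replicate 1). Lypd8, which keeps flagellated bacteria off the epithelium, was the most abundant (845, 795 and 1508 against 33388, 12191 and 14640 TPM; log2 difference -4.17, SE 0.38, adjusted p = 7.64e-05).

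Brush border genes were less divided. Of 27, 17 were higher in enterocyte and 2 in goblet libraries, with a median of -0.89. The metalloprotease Mep1b differed by -5.08 (1.3, 2.07 and 4.15 against 164, 100 and 82.5 TPM), the adhesion molecule Tmigd1 by -3.40 and the intermicrovillar cadherins Cdhr2 by -2.56 and Cdhr5 by -2.04. Vil1, villin of the microvillus core, stood at 375, 414 and 381 TPM in goblet and at 939, 627 and 651 TPM in enterocyte libraries (log2 difference -0.90, SE 0.17, adjusted p = 0.00296), and goblet libraries kept a high level. Dpp4 was the reverse (39.9, 39.9 and 36.1 against 13.8, 22.4 and 25 TPM; 0.93), and so was Baiap2l2 (0.86), whose call was lost without enterocyte replicate 1 or 2 or goblet replicate 2 or 3 (adjusted p 0.0616 to 0.136).

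Genes of salt and water absorption were mostly on the enterocyte side. Of 22 absorption genes, 15 were higher in enterocyte and 2 in goblet libraries, with a median of -2.02. Slc9a3, the apical sodium-proton exchanger, stood at 0.0704, 0.0761 and 3.11 TPM in goblet and at 107, 43.2 and 53.7 TPM in enterocyte libraries (log2 difference -5.25, SE 0.53, adjusted p = 0.000116; -5.90 without goblet replicate 3). It would have failed the filter without the enterocyte libraries. Aqp8, an apical water channel, stood at 0.354, 0.892 and 7.94 TPM in goblet and at 619, 172 and 174 TPM in enterocyte libraries (log2 difference -6.55, SE 0.71, adjusted p = 0.000161; -7.37 without goblet replicate 3, -5.93 without enterocyte replicate 1). Aqp4, the basolateral water channel, stood at 19.5, 25.5 and 42.4 TPM in goblet and at 618, 553 and 545 TPM in enterocyte libraries (log2 difference -4.32, SE 0.26, adjusted p = 2.37e-05). Thus these 3 were low in every goblet library. Another water channel, Aqp1, was on the goblet side: 50.9, 118 and 111 against 3.77, 10.4 and 19 TPM (log2 difference 3.10, SE 0.54, adjusted p = 0.00183). Lgr5-enriched libraries held 99 to 215 TPM of it, a range that overlaps that of the goblet libraries. The colonic proton pump Atp12a differed by -5.38 (-4.66 without enterocyte replicate 1), the exchanger Slc9a2 by -5.01, and the monocarboxylate carrier Slc5a8 by -4.25.

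Of 21 secretion genes, 5 were higher in goblet and 9 in enterocyte libraries, with a median of -0.59. The goblet share is below the 28.2% of all genes tested, and the enterocyte share above the 15.9%. Slc12a2, the basolateral cotransporter that loads chloride, stood at 359, 313 and 263 TPM in goblet and at 72.2, 85.8 and 113 TPM in enterocyte libraries (log2 difference 1.79, SE 0.19, adjusted p = 0.000146). Lgr5-enriched libraries held more, 498 to 643 TPM. Cftr, the apical chloride channel, stood at 26.5, 38.5 and 38.3 TPM in goblet and at 45.9, 89.3 and 84.8 TPM in enterocyte libraries (log2 difference -1.03, SE 0.26, adjusted p = 0.0117). It was lower in goblet than in enterocyte libraries and highest in Lgr5-enriched ones at 190 to 251 TPM. The chloride channel Ano1 was also on the enterocyte side (81.4, 69.3 and 72.8 against 235, 192 and 151 TPM; -1.34), with Slc4a4 (-1.54) and Prkg2 (-2.11). The potassium channel Kcnn4 (1.18; call lost without goblet replicate 2 or 3, adjusted p 0.0527 and 0.0708) and Car8 (2.39) were on the goblet side. A pair of related potassium channels parted: Kcnk5 was higher in enterocyte (7.45, 13.9 and 15 against 76.7, 102 and 87.1 TPM; -2.82) and Kcnk6 higher in goblet libraries (180, 128 and 150 against 39.8, 14.6 and 21.6 TPM; 2.64).

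**Figure D4:**
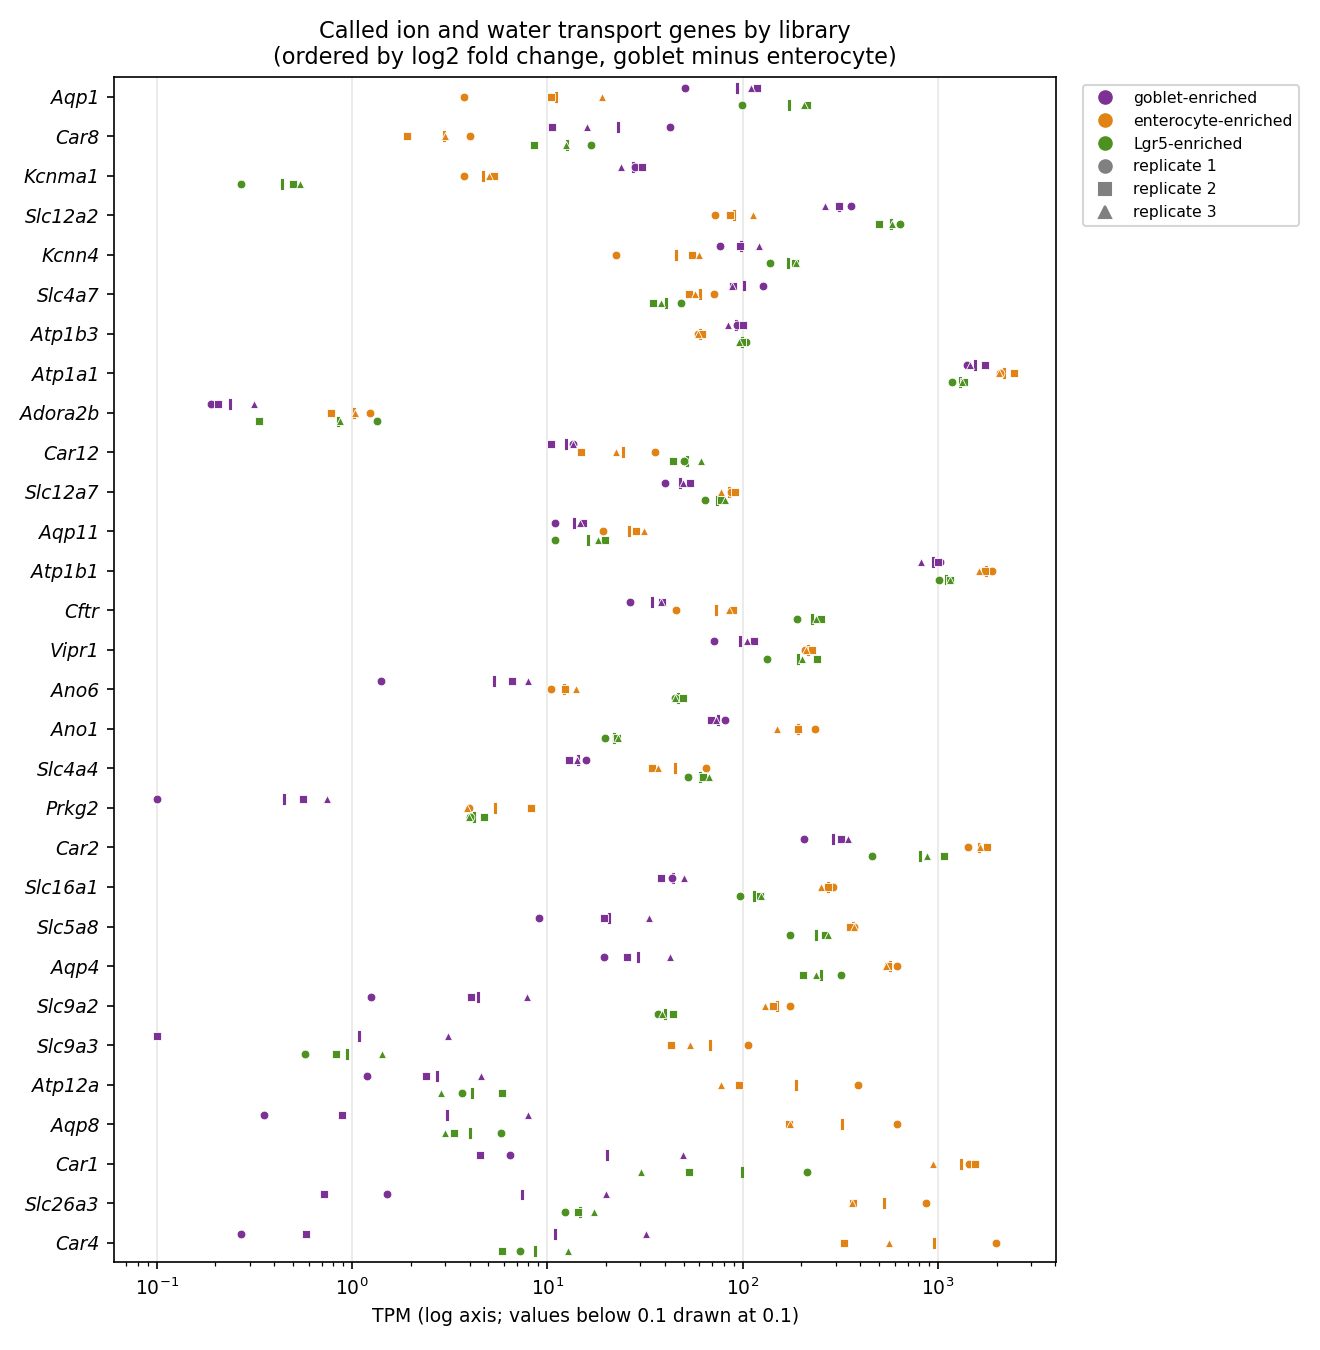
TPM (log axis) of the absorption and secretion genes that were called, in each library; colours mark the population, symbols the replicate and short bars the mean of 3 libraries, ordered by the log2 difference, goblet minus enterocyte. Aqp1, Kcnma1 and Car8 lie at the goblet end, Car1, Car4, Slc26a3 and Aqp8 at the enterocyte end, and goblet replicate 3 is the highest goblet library for Car1, Car4, Slc26a3 and Aqp8.

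Energy metabolism leaned to the enterocytes. Of 38 nuclear genes of oxidative phosphorylation, 37 were higher in enterocyte libraries and 1, Ndufa4 (766, 676 and 659 against 391, 467 and 459 TPM; 0.67), in goblet libraries, with a median of -0.81. Cox5a, a subunit of complex IV, stood at 592, 519 and 564 TPM in goblet and at 1405, 1372 and 1334 TPM in enterocyte libraries (log2 difference -1.30, SE 0.12, adjusted p = 7.01e-05). Sdhb, the iron-sulphur subunit of complex II, stood at 244, 238 and 262 TPM in goblet and at 578, 591 and 565 TPM in enterocyte libraries (log2 difference -1.22, SE 0.1, adjusted p = 5.65e-05). The spread within each population was small, and the summed list was 16322 to 16810 TPM in goblet, 28003 to 29155 TPM in enterocyte and 21621 to 22029 TPM in Lgr5-enriched libraries, with no overlap. Of 31 genes of butyrate use, fatty acid oxidation and ketogenesis, 22 were higher in enterocyte and 2 in goblet libraries, with a median of -0.70. Slc16a1, the butyrate carrier Mct1, stood at 43.5, 38.1 and 50.4 TPM in goblet and at 291, 275 and 252 TPM in enterocyte libraries (log2 difference -2.61, SE 0.15, adjusted p = 2.37e-05). Acsm3, an acyl-CoA synthetase of medium-chain fatty acids, differed by -3.13 (-2.31 without goblet replicate 1). Lgr5-enriched libraries held 256 to 377 TPM of Acsm3, against 125 to 207 TPM in enterocyte libraries. For Slc16a1 they held 35.5% to 45.7% of the enterocyte mean. Acsl1, which activates long-chain fatty acids, was the exception of size (76.8, 86.7 and 68.2 against 13.1, 21 and 20.5 TPM; 2.05).

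Xenobiotic metabolism was called in 1 direction: of 28 tested, 24 were higher in enterocyte and 0 in goblet libraries, with a median of -2.63. Besides the cytochrome Cyp2c55, given above, it held the carboxylesterases Ces2e (-5.62, -6.31 without goblet replicate 3 and -4.83 without goblet replicate 1) and Ces2c (1.07, 2.41 and 7.08 against 277, 152 and 123 TPM; -5.50), and the cytochromes Cyp4f14 (-5.54) and Cyp2d34 (-5.34). These belong to families of near-identical genes, between which reads may be split. Maoa, monoamine oxidase A, stood at 34.4, 48.2 and 64.6 TPM in goblet and at 666, 571 and 494 TPM in enterocyte libraries (log2 difference -3.56, SE 0.21, adjusted p = 2.37e-05). In sum the xenobiotic list held 1368 to 2503 TPM in goblet, 6723 to 7147 TPM in enterocyte and 5223 to 8013 TPM in Lgr5-enriched libraries. The enterocyte and Lgr5-enriched sums thus overlapped, though each named gene of the list was lower in Lgr5-enriched than in enterocyte libraries. In cholesterol synthesis, 7 of 22 were higher in goblet (4 without enterocyte replicate 1 or 2 or goblet replicate 1 or 3) and 2 in enterocyte libraries (1 when any single library of the 6 was left out). These shares are below or near the background, and the median, 0.20, is that of all genes.

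Cell cycle genes were on the goblet side. Among 31 mitotic (G2/M) genes, 30 were called higher in goblet and 0 in enterocyte libraries, with a median of 1.30 (19 without goblet replicate 3 and enterocyte replicate 1, added after the data were seen). Plk1, a mitotic kinase, stood at 292, 371 and 352 TPM in goblet and at 69.7, 80.8 and 102 TPM in enterocyte libraries (log2 difference 2.00, SE 0.17, adjusted p = 5.61e-05). Lgr5-enriched libraries were lower than goblet ones for Plk1, at 119 to 148 TPM. For the summed list they were higher, at 1821 to 2597 TPM against 1345 to 1732 TPM in goblet libraries. In mm10, Plk1 (chr7:122159439-122169873, +) ends beside the end of Ern2 (chr7:122169893-122186207, -), which was also higher in goblet libraries. Whether reads of 1 were counted for the other was not tested, and the use of strand is not stated. Mki67, the proliferation marker, stood at 121, 112 and 124 TPM in goblet and at 35.3, 31.7 and 52.9 TPM in enterocyte libraries (log2 difference 1.59, SE 0.18, adjusted p = 0.000191), with 195 to 226 TPM in Lgr5-enriched libraries. Of 32 genes of S phase, 18 were called higher in goblet and 0 in enterocyte libraries, with a median of 0.82. This count moved with single libraries. It was 6 without goblet replicate 3 or enterocyte replicate 2, 8 without enterocyte replicate 1, 10 without goblet replicate 2, and 2 without both goblet replicate 3 and enterocyte replicate 1. It was 10 with median-of-ratios scaling and 29 with the replicate block. Their sums were 878, 1010 and 1356 TPM in goblet replicates 1 to 3, 506, 491 and 849 TPM in enterocyte replicates 1 to 3, and 2113 to 3193 TPM in Lgr5-enriched libraries, so replicate 3 was high in each. Of 29 ribosome biogenesis genes, 24 were higher in goblet and 1, Utp20 (-1.37), in enterocyte libraries, with a median of 0.92. The nucleolar Gnl3 led with 1.98 (133, 115 and 100 against 16, 40.4 and 35.1 TPM), and Lgr5-enriched libraries held 164, 125 and 129 TPM of it. The summed list was highest in Lgr5-enriched libraries, at 2866 to 3665 TPM, against 1827 to 1972 TPM in goblet and 760 to 1212 TPM in enterocyte libraries.

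Wnt targets and stem cell markers were higher in goblet libraries for 17 of 20 tested and in enterocyte libraries for 0, with a median of 1.64. One of the 17 is Cd44, which the gates used; without it the count was 16 of 19 and the median 1.61. Smoc2 stood at 44.6, 54.7 and 62.9 TPM in goblet and at 1.62, 2.2 and 5.84 TPM in enterocyte libraries (log2 difference 3.82, SE 0.32, adjusted p = 5.91e-05), and Lgr5-enriched libraries held 150 to 202 TPM. Ephb3, a receptor that keeps cells at the crypt bottom, stood at 54.2, 91 and 83.4 TPM in goblet and at 5.42, 9.2 and 17.2 TPM in enterocyte libraries (log2 difference 2.83, SE 0.36, adjusted p = 0.000351). Lgr5 stood at 1, 6.72 and 7.72 TPM in goblet and at 0.0442, 0 and 0.333 TPM in enterocyte libraries (log2 difference 2.20, SE 0.49, adjusted p = 0.00623; 2.88 without goblet replicate 1), against 31.4 to 44.1 TPM in Lgr5-enriched libraries. Goblet replicate 1 was at 1 TPM and the other goblet libraries near 7 TPM. Ascl2, a stem cell factor, differed by 2.27 (2.92 without goblet replicate 1), Tnfrsf19 by 2.43 and Tcf7 by 2.13.

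In the BMP list, 4 of 15 were higher in goblet and 6 in enterocyte libraries, with a median of -0.01. The goblet share is near the 28.2% of all genes tested, and the enterocyte share above the 15.9%. Id1, a BMP target, stood at 11.5, 32.5 and 50.8 TPM in goblet and at 1053, 350 and 482 TPM in enterocyte libraries (log2 difference -4.34, SE 0.52, adjusted p = 0.000262). Id3, another, stood at 17.8, 32.8 and 26.2 TPM in goblet and at 403, 234 and 226 TPM in enterocyte libraries (log2 difference -3.43, SE 0.26, adjusted p = 4.38e-05). Both were low in all goblet libraries, as was the inhibitory Smad6 (-2.78), and the ligand Bmp2 differed by -1.36, a call lost without enterocyte replicate 1 or goblet replicate 2 or 3 (adjusted p 0.0605 to 0.0701). Id4, of the same family as Id1 and Id3, went the other way (45.8, 9.59 and 13.6 against 2.13, 1.48 and 1.36 TPM; 2.88, and 2.24 without goblet replicate 1), and so did the ligand Bmp7 (1.96, 8.98 and 8.33 against 0, 0.0395 and 0.38 TPM; 2.53). Bmp7, among the 4, passed the filter only through the goblet libraries, so it had to differ in that direction. The enterocyte count was 3 without goblet replicate 3 and enterocyte replicate 1.

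Of 31 transcription factors of intestinal differentiation, 19 were higher in enterocyte and 2 in goblet libraries, with a median of -0.85. Mxd1, a Myc antagonist, stood at 32.4, 22.4 and 26.1 TPM in goblet and at 370, 214 and 160 TPM in enterocyte libraries (log2 difference -3.08, SE 0.29, adjusted p = 8.06e-05). Hnf4a, a nuclear receptor of the absorptive programme, stood at 229, 232 and 224 TPM in goblet and at 635, 488 and 479 TPM in enterocyte libraries (log2 difference -1.21, SE 0.16, adjusted p = 0.000372). Its paralog Hnf4g differed by -0.87. The Ets-family factor Ehf was on the goblet side (1020, 594 and 520 against 218, 212 and 218 TPM; 1.65), as was Grhl2 (0.56), whose call was lost without enterocyte replicate 1 or goblet replicate 2 (adjusted p 0.0687 and 0.0763). Among 8 keratins, Krt7 (556, 683 and 568 against 132, 230 and 250 TPM; 1.61) and Krt18 (1710, 2437 and 1953 against 930, 1150 and 1072 TPM; 0.94) were higher in goblet libraries. Krt8 (1877, 3048 and 2607 against 10289, 9862 and 9089 TPM; -1.98), Krt19 (1334, 1556 and 1444 against 9249, 7751 and 7484 TPM; -2.49), Krt20 and Krt36 (-2.68) were higher in enterocyte libraries. Krt8 and Krt18, which pair in filaments, thus lay on opposite sides. Krt36 moved with single libraries: it was -3.70 without enterocyte replicate 1, -1.93 without enterocyte replicate 2, and lost its call without enterocyte replicate 2 or 3 or goblet replicate 1 or 3 (adjusted p 0.0569 to 0.0909).

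Of 24 junction and adhesion genes, 11 were higher in enterocyte (6 without goblet replicate 3 and enterocyte replicate 1) and 2 in goblet libraries, with a median of -0.52. Both on the goblet side were pore-forming claudins. Cldn2 stood at 280, 201 and 185 TPM in goblet and at 44, 71.5 and 102 TPM in enterocyte libraries (log2 difference 1.66, SE 0.28, adjusted p = 0.00152). Cldn15 was at 496, 543 and 587 against 109, 143 and 193 TPM (1.90). Cldn8, a sealing claudin of the distal nephron and colon, stood at 5.87, 12.3 and 15.1 TPM in goblet and at 393, 167 and 163 TPM in enterocyte libraries (log2 difference -4.28, SE 0.4, adjusted p = 8.02e-05). The claudins therefore differed in direction with non-overlapping groups, and Cdh17, a cadherin of the lateral membrane, differed by -1.39.

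Surface defence was on the enterocyte side. Of 27 tested, 15 were higher in enterocyte and 0 in goblet libraries (2 with the replicate block and 1 without enterocyte replicate 1), with a median of -2.36. Gsdmc4, a gasdermin, stood at 8.08, 51.3 and 194 TPM in goblet and at 3442, 2390 and 2873 TPM in enterocyte libraries (log2 difference -5.99, SE 1.03, adjusted p = 0.0018; -7.04 without goblet replicate 3, -4.83 without goblet replicate 1). Its near copies Gsdmc2 (-5.99; -7.15 without goblet replicate 3, -4.77 without goblet replicate 1) and Gsdmc3 (-5.94; -7.00 and -4.71) gave like values, and reads may be split among them. Il18, a cytokine of the epithelium, stood at 14.2, 20.6 and 36.4 TPM in goblet and at 478, 449 and 472 TPM in enterocyte libraries (log2 difference -4.34, SE 0.32, adjusted p = 3.87e-05). Dmbt1, a scavenger receptor protein, stood at 118, 179 and 332 TPM in goblet and at 6503, 2053 and 2624 TPM in enterocyte libraries (log2 difference -4.09, SE 0.46, adjusted p = 0.000193). Goblet replicate 3 was the highest goblet library for each of these 3, and no goblet library reached the enterocyte range. Lgr5-enriched libraries held 2078 to 2877 TPM of Dmbt1, within the enterocyte range. They held 39.7 to 70.5 TPM of Il18 and 155 to 1214 TPM of Gsdmc4, below it. Tgm3, a transglutaminase, stood at 0.423, 1.65 and 33.8 TPM in goblet and at 949, 844 and 673 TPM in enterocyte libraries (log2 difference -7.33, SE 1.04, adjusted p = 0.000638; -8.71 without goblet replicate 3, -6.41 without goblet replicate 1).

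The MHC class II and interferon lists moved with the replicate number. For 15 genes of MHC class II and antigen presentation, 1 was called higher in enterocyte (Tap2, -1.0, lost without goblet replicate 2 at adjusted p = 0.0557) and 0 in goblet libraries; with the replicate block these counts were 9 and 1. Their sums in replicates 1 to 3 were 9381, 2467 and 3349 TPM in goblet, 12206, 2628 and 3743 TPM in enterocyte and 11960, 2503 and 3458 TPM in Lgr5-enriched libraries. Replicate 1 was thus several times the others in all 3 populations, and Cd74, the invariant chain, was at 1095, 48.6 and 75.9 against 3094, 79.8 and 130 TPM. Of 26 interferon-stimulated genes, 12 were higher in enterocyte and 0 in goblet libraries, with a median of -0.97. This count was 5 without enterocyte replicate 1 or goblet replicate 2 and 6 without enterocyte replicate 3, and with the replicate block it was 16 in enterocyte and 1 in goblet libraries. Isg15 gave 9.28, 3.76 and 13.3 against 132, 19.4 and 77.7 TPM (-2.75), with its call lost without enterocyte replicate 1 or goblet replicate 2 (adjusted p 0.0525 and 0.0518) and -3.52 without enterocyte replicate 2. Ifit1 gave 1.06, 0.359 and 2.64 against 35.5, 5.38 and 25.4 TPM (-3.08, -3.84 without enterocyte replicate 2), and its highest goblet library was below its lowest enterocyte library. Of 18 immediate early genes, which dissociation can raise, 1 (Ier3, 1.19) was called higher in goblet and 0 in enterocyte libraries; the goblet count was 2 without goblet replicate 1 or enterocyte replicate 3 and 6 with the block.

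**Figure D5:**
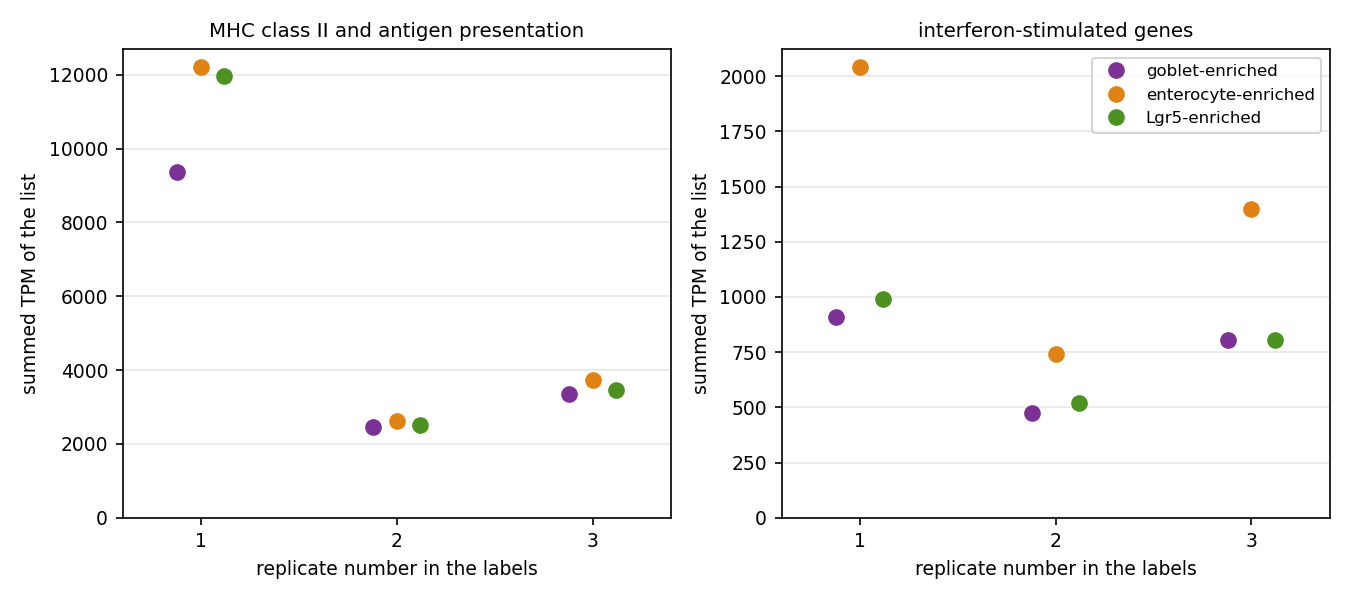
Summed TPM of the MHC class II list (left) and the interferon list (right) against the replicate number, with 1 point per library coloured by population. For MHC class II the 3 libraries of replicate 1 lie between 9381 and 12206 TPM and all others at or below 3743 TPM, and for the interferon list the enterocyte library is the highest at each number.

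Markers of other cell types were low, with exceptions. Of 16 tested enteroendocrine markers, 6 were higher in enterocyte and 2 in goblet libraries (1 without goblet replicate 2 or 3 or enterocyte replicate 1), and the list summed to 90.3 to 139 TPM in goblet and 194 to 311 TPM in enterocyte libraries. Pyy, a peptide of L cells, stood at 0, 0 and 3.1 TPM in goblet and at 47.5, 20.9 and 56.6 TPM in enterocyte libraries (log2 difference -4.62, SE 0.6, adjusted p = 0.000382; -5.30 without goblet replicate 3). Lgr5-enriched libraries held 50 to 121 TPM of Pyy and 224 to 391 TPM of the list in sum. The prohormone convertase Pcsk1 was on the goblet side (30.2, 28 and 20.8 against 3.31, 2.65 and 2.98 TPM; 2.77). Tuft cell markers summed to 10.5, 28.9 and 81.7 TPM in goblet replicates 1 to 3 and 7.3 to 11 TPM in enterocyte libraries, so goblet replicate 3 was highest. Of 6 tested, 2 (Avil and Rgs13) were called higher in goblet, a share near the 28.2% of all genes tested. The call of Rgs13 was lost without enterocyte replicate 1 (adjusted p = 0.0668), and without goblet replicate 1 the count was 4. Rgs13 passed the filter on low values only through the goblet libraries, so it had to differ in that direction. Leukocyte markers summed to 13.4 to 28.4 TPM in goblet and 271, 159 and 21.4 TPM in enterocyte replicates 1 to 3. The highest of them in enterocyte libraries was Lyz2, lysozyme 2 (0.166, 11.5 and 8.79 against 232, 133 and 12.9 TPM; log2 difference -3.86, SE 1.35, adjusted p = 0.0434). Its call was lost without goblet replicate 1 or 3 or enterocyte replicate 1 or 2 (adjusted p 0.0608 to 0.142). The difference was -2.78 without goblet replicate 1, -4.49 without goblet replicate 2, -3.04 without enterocyte replicate 1 and -5.08 without enterocyte replicate 3. Ptprc was at most 1.2 TPM and Cd4 and Nkg7 were listed at 0. Stromal and endothelial markers summed to 13.5 to 22.7 TPM in the 6 libraries. Among Paneth cell markers the defensins were listed at 0 but for Defa17 at 0.461 TPM in goblet replicate 2. Of 8 tested, 2 were higher in goblet (4 with the replicate block, 0 without goblet replicate 3 or enterocyte replicate 2 and 1 without enterocyte replicate 1 or 3). This share is near the 28.2% of all genes tested, and 1 of the 2, Mmp7, passed the filter on low values only through the goblet libraries. Mmp7 stood at 19, 2.37 and 1.54 TPM in goblet replicates 1 to 3. Mptx1, a pentraxin, stood at 8738, 28440 and 36946 TPM in goblet and at 6882, 12280 and 16200 TPM in enterocyte libraries (log2 difference 0.92, SE 0.81, adjusted p = 0.385), not called, and in both populations replicate 1 was lowest. Ang4 (420, 185 and 1859 against 497, 106 and 451 TPM, adjusted p = 0.462) was not called either. Pla2g2a (714, 73.3 and 203 against 81, 13.3 and 46.7 TPM, adjusted p = 0.0836) was called only in some other settings, among them the replicate block (adjusted p = 0.000439). The part of these cell types in the results was not tested.

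The largest differences outside the lists included genes of unrelated roles. Etv5, an Ets-family factor that responds to receptor kinase signalling, stood at 167, 159 and 132 TPM in goblet and at 2.88, 3.56 and 6.75 TPM in enterocyte libraries (log2 difference 4.89, SE 0.3, adjusted p = 2.37e-05); it lies on chr16:22381309-22439719 (-). Mt3, a metallothionein, stood at 40.4, 58.8 and 67.6 TPM in goblet and at 0, 0.808 and 2.59 TPM in enterocyte libraries (log2 difference 4.89, SE 0.46, adjusted p = 8.51e-05). No enterocyte library passed 6.75 TPM for either, and no goblet library was below 40.4 TPM. Cmah, which makes the sialic acid Neu5Gc, differed by 4.29 (32.1, 37.3 and 19.9 against 0.23, 0.569 and 0.841 TPM) and Casc4 by 4.66 (101, 49.9 and 49.9 against 1.48, 1.26 and 1.92 TPM). Mt3 and Cmah passed the filter only through the goblet libraries, so they had to differ in that direction. On the enterocyte side, the largest outside the lists included Prss30, a serine protease (0.358, 0.774 and 11.9 against 579, 147 and 157 TPM; -6.25, -7.27 without goblet replicate 3, -5.65 without goblet replicate 1 and -5.61 without enterocyte replicate 1). Slc37a2, a sugar phosphate carrier of the colonocyte list, was close to it in size (0.0791, 0.256 and 5.5 against 258, 93.2 and 107 TPM; -6.07, -6.89 without goblet replicate 3). For both, goblet replicate 3 was the highest goblet library.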

How the data were processed

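Poly-A libraries of sorted cells were sequenced on either of 2 instruments, and the labels used here do not tie a library to an instrument. The authors deposited 1 log2 value per gene symbol and library. Per the values, this is log2(TPM) at 1 TPM or above and TPM minus 1 below it, and the back-transformed TPM sum to 1000000 in each library. The submitters' processing notes name Cufflinks and mm10 without versions. The aligner, the annotation and the use of strand are not stated in the sources used here. Of 24421 symbols, 23641 were found in the gene name tables, and 0 sample columns were left unused.

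The limma 3.58.1 package (R 4.3.3; lmFit, then eBayes with trend) fitted log2(TPM + 1), a scale that understates the change of low genes. The fit had a mean for each population over the 9 libraries, 6 residual and 3.21 prior degrees of freedom. A gene had to reach 1 TPM in 3 libraries, which removed 5508 of 18396 genes above 0. No exact test of 3 against 3 libraries can go below p = 0.1, so single values were not tested that way. The fit was also run on simulated data with known changes in a small part of the genes. That setting lacks the many changed genes and the shared deviations by replicate number seen here, so no conclusion is drawn from it. Tables and figures were made with Python 3.11.15. Whole reads could be recovered for 18386 of 18396 genes (99.95%, tolerance 1e-06), which gives depth as a lower bound; 1 read in 1 kb was worth 0.145 to 0.208 TPM in the 6 libraries.

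The gene lists, the members compared and the rule for named genes were chosen with earlier results of these data known. The rule named the markers and sorting antigens and the 10 largest non-overlapping differences in each direction. From each list it named up to 5 called members with the largest differences and up to 3 against its majority. It also named all members of the lists of paralog pairs, lineage transcription factors, keratins and sex-linked transcripts, and the most abundant markers of other cell types. A further 33 genes were named after their values were seen: Ano1, Aqp4, Asns, Bmp2, Calr, Canx, Ccl6, Cd74, Cdhr5, Cftr, Creld2, Dlk1, Dmbt1, Dnajc3, Fcgbp, Galnt12, Hsp90b1, Hspa5, Il18, Kcnn4, Lgr5, Lypd8, Maoa, Mirg, Muc13, Papss2, Pdia6, Reg4, Retnlb, Syvn1, Tcf7, Tff3 and Vil1.

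Same-numbered goblet and enterocyte libraries deviated together: the correlations of their deviations from the population means were 0.28, 0.44 and 0.19, against -0.41 to 0.08 for other pairs. The number was therefore treated as pairing the libraries in an alternative fit with a replicate block, although enterocyte replicate 1 goes against the sex of its namesakes. The other alternatives were other pseudocounts, filters, scalings and models, limma-voom on the recovered reads, and leaving out each library.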

Additional observations from a re-analysis of the deposited data

How the results depend on the processing

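Over 22 other settings, 183 of the 219 named genes that were called kept their direction and their call in every setting that tested them, and 0 reversed. The count of genes called fell to 3686 (2266 higher in goblet) without goblet replicate 3 and enterocyte replicate 1, a setting chosen after the data were seen; fewer libraries enter that fit. The median level of goblet products inside the enterocyte gate was 18.7% of the goblet mean. It ran from 14.7% to 25.5% when 1 library was left out, with 24.6% without goblet replicate 1 and 25.5% without enterocyte replicate 2. The gene at the median was Cd177, whose call moved with single libraries. It stood at 36.5%, 2.19% and 17.3% in enterocyte replicates 1 to 3. Colonocyte markers in the goblet gate, at 2.30% of the enterocyte mean, ran from 1.20% without goblet replicate 3 to 3.11%.

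With the replicate block, 4683 genes were called higher in goblet and 2653 in enterocyte libraries (7336 in all), and 5682 of the 5687 reported calls were kept. The block lost no call of a named gene and added 9: Cd74, Chga, Chgb, Clca4b, Krt23, Pla2g2a, Retnlb, Sox4 and Tac1. Apart from the list counts given with the block in the report, it moved no list count by over 1.5 times.

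Median-of-ratios scaling called 2553 and 2751 genes and quantile normalization 2890 and 2379, so the share of calls higher in goblet was 48.1% and 54.8%, against 63.9%. Limma-voom on the recovered reads called 3068 and 2094. Leaving out 1 library of the 9 gave 4493 to 5897 calls, of which 2783 to 3715 were higher in goblet. With 3 libraries per population, depth limits what can be read below about 1 TPM, and values near 0 in goblet libraries rest on few reads.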

Other observations

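Transcripts of 1 stretch of chromosome 12, the imprinted region between Dlk1 and Dio3, were found together among the largest differences. The region was picked after these values were seen. Imprinting means that the copy from 1 parent is silent. RefSeq lists 103 symbols between these genes, of which 6 were among the genes tested. Symbols of the region that fell below the filter were not counted. All 6 passed the filter on low values only through the goblet libraries, so they had to differ in that direction, and their values are given as a description. Meg3, a long noncoding RNA, stood at 40.5, 40.9 and 32 TPM in goblet and at 0.594, 0.515 and 0.713 TPM in enterocyte libraries (log2 difference 4.59, SE 0.18, adjusted p = 8e-06). Rian, also noncoding, stood at 92.8, 62.5 and 48.9 TPM in goblet and at 0.988, 0.729 and 0.925 TPM in enterocyte libraries (log2 difference 5.15, SE 0.24, adjusted p = 1.38e-05). Dlk1, a transmembrane protein of the Notch ligand family that is made from the other parental copy, stood at 9.55, 8.98 and 6.24 TPM in goblet and at 0.995, 0.512 and 0.435 TPM in enterocyte libraries (log2 difference 2.49, SE 0.24, adjusted p = 9.14e-05). Every goblet library lay above every enterocyte library for each, and the Lgr5-enriched libraries were at most at 0.127 TPM for Meg3, 0.173 TPM for Rian and 0.369 TPM for Dlk1. In mm10, Dlk1 lies on chr12:109452823-109463336, Meg3 on chr12:109541001-109571726 and Rian on chr12:109603940-109661716, all on the + strand.

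Mirg, further along the region, stood at 8.5, 4.52 and 4.92 against 0, 0 and 0.134 TPM (2.70; 63, 31 and 33 recovered reads in goblet replicates 1 to 3 and 0, 0 and 1 in enterocyte replicates 1 to 3). AF357359, a 30-base entry inside Rian, had the largest log2 difference on the goblet side among the genes named by rule, 6.01, with 67, 15 and 17 reads in goblet and 0, 3 and 0 in enterocyte replicates 1 to 3; it was 7.33 without enterocyte replicate 2, 5.37 without goblet replicate 1 and 5.35 without enterocyte replicate 1 or 3. DQ267102, a 71-base entry inside Rian, had 2, 1 and 2 reads in goblet and 0 in all enterocyte libraries. Reads of these short entries and of Rian cannot be told apart here.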
